A study of Mus musculus with 13 samples.

Results

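H3K4me3, trimethylation of lysine 4 of histone H3, was compared at gene promoters between 4T1 cells that carry a non-targeting guide RNA (sg-Ctrl) and the Nup210 knockout clone KO-N13 (KO). 4T1 is a cell line from a spontaneous mammary tumor of a BALB/cJ mouse. Both lines stably expressed a lentiviral guide with puromycin resistance and received Cas9 from an adenovirus. The knockout guide cuts exon 5 of Nup210, and KO-N13 is 1 clone grown from single cells, so that loss of NUP210 cannot be told apart from other differences of this clone. Each side has 1 library made with the same antibody (clone MC315). A value below is therefore a difference between 2 libraries. Its interval covers counting error, or the spread over genes for a median, and no test over replicates was possible. The promoter peaks were the peaks of the 2 H3K4me3 lists that lie within 4 kb of a transcription start site (TSS), 11018 in sg-Ctrl and 10854 in KO, of 64739 distinct peaks in the 6 ChIP-seq lists of the series. Both lists held a TSS peak of 12197 genes. Another 256 genes had one in the sg-Ctrl list only, and 240 in the KO list only. For these the other list held no peak within 4 kb of the gene's start, and peaks farther away were not examined. At 1 of the 12197 genes the peaks lay on different chromosomes, and the other 12196 were compared. Several genes can share a peak, and these 12196 genes stood on 10075 distinct sg-Ctrl peaks.

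Trimethylation of H3K4 is laid down around active start sites by SET1 and MLL methyltransferases. CpG-rich promoters carry it most widely, because CFP1 and MLL proteins hold domains that bind unmethylated CpG. It is removed by KDM5 demethylases. Broad H3K4me3 domains are known from genes of cell identity, and promoters of silent developmental genes can carry H3K4me3 together with H3K27me3, the mark of Polycomb repressive complex 2. NUP210 is a membrane-spanning nucleoporin of the nuclear pore.

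Signal is given as density, the reads of a gene's TSS peak divided by the size of its library relative to IgG and by the peak's length in kb. By this measure KO was sequenced 1.27 times deeper, yet its peaks held 24873356 reads against 26236314. This division sets the overall level. When the reads of the peaks common to both lists were made equal instead, all log2 ratios moved up by 0.42, so that ratios are best read against the median of all genes. Nup210 itself had a promoter peak in both, and the guide lies outside it, in exon 5. It held 885 reads over 2600 bp in sg-Ctrl against 913 reads over 2800 bp in KO, a log2 density ratio of -0.41. All 9 epithelial markers examined (Krt8, Krt18, Epcam, Cdh1, Cldn3, Cldn4, Cldn7, Esrp1 and Grhl2) had a peak in both libraries. Of 22 leukocyte markers 3 did (Cd68, Flt3 and 1 not reported here), and of 20 endothelial and fibroblast markers 1 did (Pdgfra). The leukocyte marker not reported here had a peak over 10-fold above IgG in both libraries. The Cd68 peaks of the libraries did not overlap, and neither included its start. Ptprc, Cd3e, Pecam1 and Vwf had none in either library.

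H3K4me3 was less dense and more extended in KO. Median densities were 542.8 (sg-Ctrl) and 381.8 (KO) scaled reads per kb, and the median log2 ratio was -0.50 (95% interval from order statistics over genes, -0.51 to -0.49). Density was at least 2-fold lower at 1178 genes (9.66% of those compared) and at least 2-fold higher at 64 (0.525%). Relative to the median of all genes, 113 genes were 2-fold below (0.927%) and 268 were 2-fold above (2.2%). The interval that counting error gives a single gene had a median half-width of 0.086 on the log2 scale, against an SD of 0.44 over genes.

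**Figure D1:**
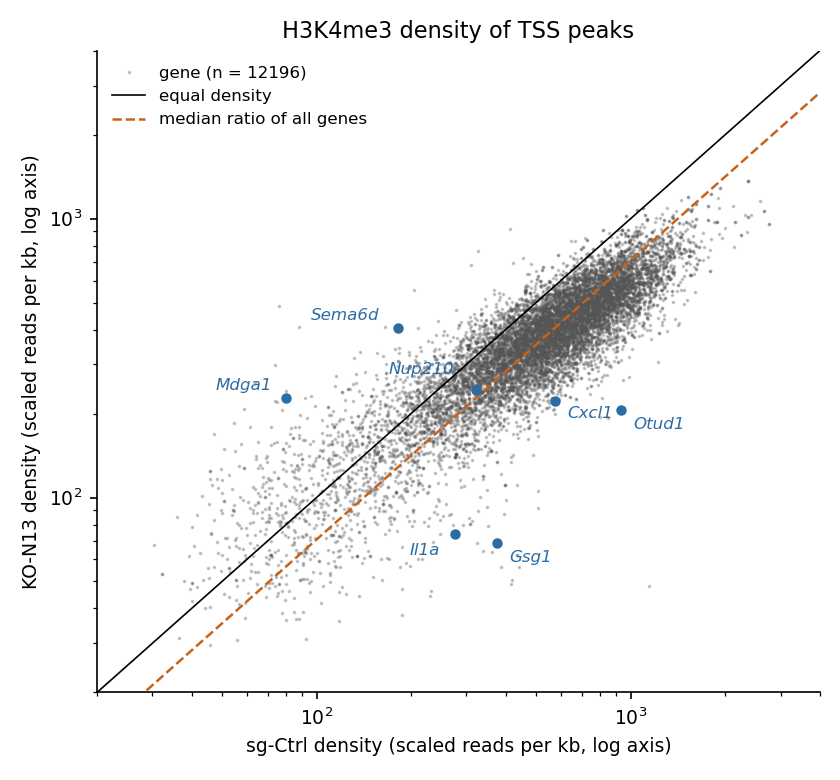
Each point is a gene, placed by its H3K4me3 density in sg-Ctrl (x axis) and in KO-N13 (y axis), in scaled reads per kb on log axes; the solid line marks equal density and the dashed line the median ratio. Most of the 12196 points lie below the line of equal density, and the cloud falls farther below it at high density than at low density.

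With the scaling to IgG, density was also lower where the length did not differ. At the 593 genes whose TSS peak had the same start and the same end in both lists, the median log2 ratio was -0.35 (-0.39 to -0.29) and 76.9% of genes were lower in KO. Scaled by shared peaks, their median was 0.077 and 41.3% were lower. At the 7693 genes with a wider peak in KO (63.1%) the median density ratio was -0.56, and at the 3301 genes with a narrower peak (27.1%) it was -0.39. Scaled reads per peak had medians of -0.19 and -0.65 in these groups. A peak both wider and with fewer scaled reads was seen at 5322 genes (43.6%), while 2371 (19.4%) were wider with more reads. Which of these patterns was commoner depended on the scaling. With the reads of shared peaks made equal, 17.0% of genes were wider with fewer reads and 46.0% wider with more, and without scaling the shares were 21.8% and 41.3%.

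The ratio was lower where the mark was denser. Genes were split into 5 groups of equal size (quintiles) by their mean log2 density over both libraries. The median log2 ratio was -0.24 in the sparsest quintile, -0.41, -0.51 and -0.57 in the next quintiles and -0.67 in the densest. In the densest quintile the median density was 964.2 in sg-Ctrl and 614.2 in KO, and 98.3% of its genes were lower in KO, against 68.9% of the sparsest. These shares hold for the scaling to IgG. Scaling by shared peaks moves all ratios up alike, so the order of the quintiles does not depend on it. The densest quintile had a lower ratio than the sparsest on 20 of 20 chromosomes, by 0.16 at the least (chromosome 13) and 0.68 at the most (chromosome 12). The range of densities in KO was therefore narrower. Its genes ran from 117.1 (5th percentile) to 701.3 (95th percentile) scaled reads per kb, against 131.8 to 1115.1 in sg-Ctrl.

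Width was related to the ratio in the same way. Genes were classed by the mean width of their peaks in both libraries. The KO width thus enters both these classes and the density ratio. At a mean width of over 1 and up to 2 kb, the median log2 density ratio was -0.14 (n = 1004). It was -0.50 for peaks of over 3 and up to 4 kb (n = 3017) and -0.64 for peaks over 8 kb (n = 616). Broad domains, the class to which many identity genes belong, had the lowest median of the width classes, and 17.0% of them were at least 2-fold lower against 9.66% of all genes. Gata3, the luminal mammary transcription factor, is one of these domains. Its peak of 24200 bp in sg-Ctrl and 24800 bp in KO held 25256 and 22073 reads, and its density was 983.8 and 660.5 scaled reads per kb, a log2 ratio of -0.57. Lmna, which encodes lamin A and C, had a domain of 16200 and 15800 bp with densities of 378.4 and 212.0, a ratio of -0.84.

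Peaks were extended on both sides of the start site, and at more genes on the upstream side. The KO library was 1.27 times deeper by its ratio to IgG, and the part of depth in peak width was not tested. The median TSS peak was 3600 bp long in sg-Ctrl and 4200 bp in KO, where widths come in steps of 200 bp. The upstream edge lay farther out in KO at 57.1% of genes and farther in at 19.5%. The downstream edge lay farther out at 51.1% and farther in at 30.8%. The median outward shift over all genes was 200 bp for either edge. Distances from the start were measured at 9912 genes with a single start site, peaks matched 1 to 1 and the start inside the sg-Ctrl peak. The KO peak was not required to include the start. Among these genes the median upstream edge moved from 1365 bp before the start to 1680 bp before it. The median downstream edge moved from 2124.5 to 2362.5 bp after it. The midpoint lay 353 bp (342 to 367) inside the gene in sg-Ctrl and 318 bp (303 to 332) in KO. It was farther upstream in KO at 49.1% of these genes and farther downstream at 38.9%, and its median shift per gene was 0 bp.

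The profile around start sites showed the same shape. Of 11166 start sites, 93.1% lay under a peak in sg-Ctrl and 93.2% in KO, so coverage of the start itself was nearly the same. At 2 kb upstream, coverage was 27.9% in sg-Ctrl and 39.0% in KO, and at 2 kb downstream it was 52.0% and 62.1%. The largest difference was at 1400 bp upstream, where 46.6% and 58.9% of sites were covered. There, 1663 sites were covered only in KO and 295 only in sg-Ctrl.

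**Figure D2:**
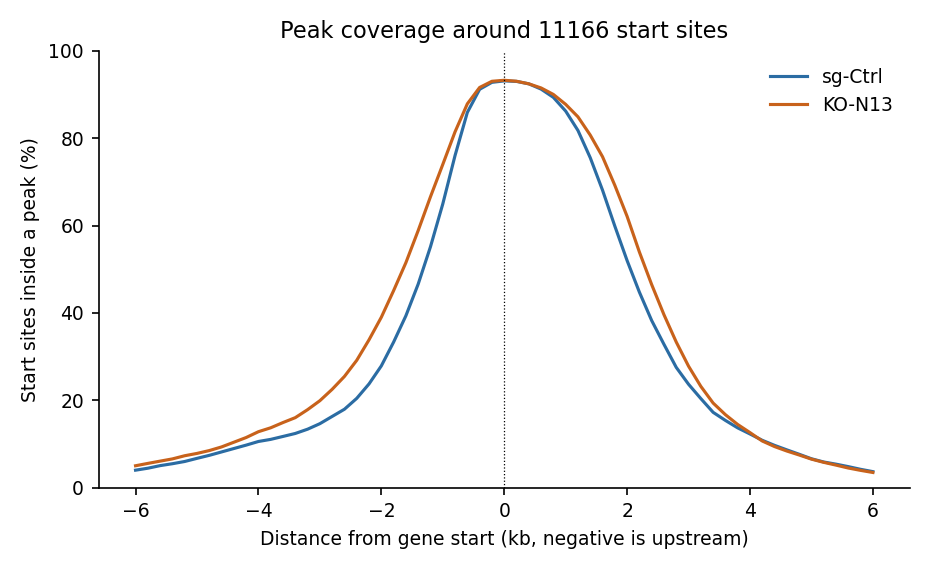
Percentage of 11166 start sites (y axis) that lie under an H3K4me3 peak at each distance from the start (x axis, kb, negative is upstream) in sg-Ctrl and KO-N13. The curves meet at the start, where 93.1% and 93.2% of sites are covered, and separate on both flanks, with 27.9% against 39.0% at 2 kb upstream.

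Joining of neighbouring peaks made up a small part of the extension. In KO, 135 peaks spanned at least 2 peaks of sg-Ctrl, and 64 sg-Ctrl peaks spanned at least 2 peaks of KO. Among the 11718 genes whose peaks matched 1 to 1, 62.9% still had a wider peak in KO. The largest gains, among genes with overlapping peaks, at least 200 reads and 10-fold over IgG in both libraries, were of this joined kind: each of the 12 largest had a KO peak that spanned 2 sg-Ctrl peaks. On chromosome 8, the peak shared by Prdx2, a peroxidase, and Rnaseh2a, a subunit of the RNase that removes ribonucleotides from DNA, ran from 84965001 to 84972600 in sg-Ctrl (7600 bp, 5648 reads) and from 84964001 to 84992200 in KO (28200 bp, 17212 reads). This KO peak also covered the neighbouring peak of Junb, an AP-1 subunit, whose density was 452 and 453 scaled reads per kb. Skida1 went from 8200 to 24400 bp, the shared peak of Cenpt, a kinetochore protein, and Thap11 from 3600 to 16000 bp, and Proca1 from 3200 to 15600 bp. At each of these the density ratio stayed between -0.63 and -0.28. The opposite was seen at the neighbours Hnrnpu, an RNA-binding protein of the nuclear matrix, and Cox20, an assembly factor of cytochrome oxidase. A single sg-Ctrl peak of 23600 bp with 17957 reads was listed in KO as separate peaks of 6400 bp at Hnrnpu (6148 reads) and 7600 bp at Cox20 (6022 reads), with log2 density ratios of -0.01 and -0.29. Tmprss11e, a membrane serine protease, had 25000 bp and 10800 bp, and Fut11, a fucosyltransferase, 15800 bp and 4400 bp.

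Chromosomes differed from each other in reads and in width. On chromosome 8 the median log2 ratio of scaled reads per TSS peak was 0.14 and 90.3% of its 672 genes had a wider peak in KO. On chromosome 16 these values were -0.09 and 83.3%. On chromosome 4 they were -0.82 and 30.9% (774 genes), and on chromosome 18 -0.83 and 34.6% (295 genes), against -0.32 and 63.1% over all genes. The difference ran along whole chromosomes. In 10 Mb windows with at least 20 genes, the median of scaled reads was between -0.02 and 0.26 in all 12 windows of chromosome 8. It was between -0.90 and -0.68 in all 10 windows of chromosome 4, and between -0.95 and -0.63 in all 7 of chromosome 18.

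The same chromosomes stood apart for H3K27me3, a mark of other regions measured with another antibody in the same 2 lines. The total of scaled H3K27me3 reads in listed peaks had a log2 ratio of 0.77 on chromosome 8, where the peaks of sg-Ctrl covered 12.7 Mb and those of KO 21.2 Mb, at 43.0 and 43.9 scaled reads per kb. On chromosome 4 it was -1.10, with 6.91 and 4.18 Mb at 36.2 and 27.9 reads per kb. On chromosome 18 it was -0.95, with 6.34 and 4.37 Mb at 38.7 and 29.0 reads per kb. The H3K27me3 library of KO was 3.16 times as deep as that of sg-Ctrl. A change in the number of copies of a chromosome in the clone was not tested, since the lists hold no reads outside peaks. Of the 1178 genes at least 2-fold lower, 389 (33.0%) were on chromosomes 4, 5 and 18, which hold 15.0% of the genes compared. Measured against the median of its own chromosome, a gene was 2-fold lower in 103 cases and 2-fold higher in 263.

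**Figure D3:**
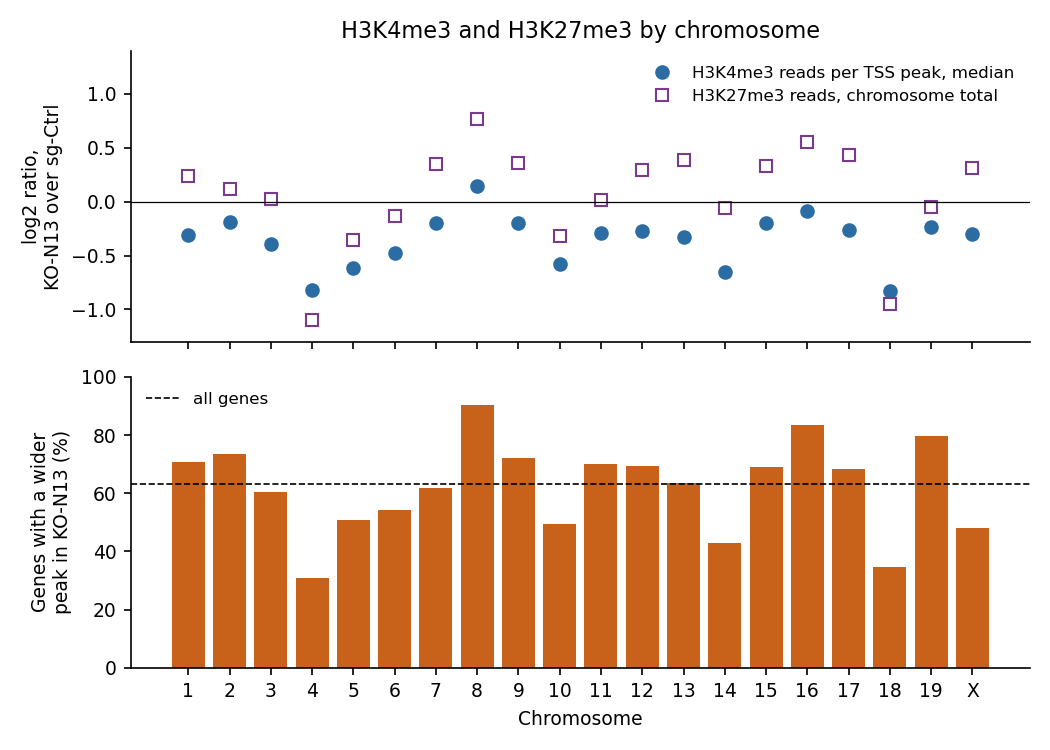
Top: log2 ratio of KO-N13 over sg-Ctrl (y axis) for the median H3K4me3 reads per TSS peak (filled circles) and the total H3K27me3 reads in peaks (open squares) of each chromosome (x axis). Bottom: percentage of genes with a wider H3K4me3 peak in KO-N13, with the value of all genes (63.1%) as a dashed line; chromosome 8 is highest in all 3 measures, and chromosomes 4 and 18 are lowest.

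Named promoters show the extremes at peaks that overlap between the libraries, with at least 200 reads and 10-fold over IgG in both. Of the 11168 genes that met these limits, 1031 were at least 2-fold lower and 4 at least 2-fold higher. The lowest was Gsg1, a germ cell gene, with 1753 reads (95% Poisson interval 1672 to 1837) against 351 (315 to 390) in KO, over peaks of 4400 and 3800 bp, a log2 density ratio of -2.45 (-2.62 to -2.29). That peak lay upstream of the start site and did not include it. Otud1, a deubiquitinase, shared a peak with the divergent Gm3230, with 5944 and 1885 reads (-2.18). Zfp422, a zinc finger protein, had 2038 and 525 reads (-2.04). 4632428N05Rik (-2.27), whose peaks lay downstream of its start site and did not include it, and 1600029D21Rik (-2.14) were also in this group. These loci lay on chromosomes 2, 6, 9 and 10 and so were not 1 region.

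At the other end stood Mdga1, a membrane protein of the synapse, with 272 reads (241 to 306) in sg-Ctrl against 1467 (1393 to 1544) in KO. Its density was 80.1 and 226.8 scaled reads per kb, and the interval of the log2 ratio was 1.31 to 1.69. Sema6d, a transmembrane semaphorin, had 541 and 2078 reads (1.16), Panx1, a channel protein, 331 and 976 (1.08), and Zdhhc14, a palmitoyltransferase, 218 and 779 (1.04). Just below 2-fold came the homeobox genes Vax2, with 230 and 645 reads (0.99), and Nkx6-3, with 310 and 955 (0.99), and the TNF receptor family member Relt, with 332 and 455 reads over 2200 and 1200 bp (0.98). The peaks of Nkx6-3 lay upstream of its start site and did not include it. Mdga1, Sema6d, Panx1 and Zdhhc14 gained scaled reads as well, by 2.09, 1.60, 1.21 and 1.49 on the log2 scale, and their peaks were wider in KO. At Relt the reads ratio was 0.11, and its higher density went with a peak that was 1000 bp shorter.

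The 250 bases before the start sites of 4 named genes are shown, with a low and a high ratio in the CpG-rich and in the CpG-poor class. All 4 stretches lie inside both peaks. Lowest and highest refer to those printed. 1600029D21Rik, which is CpG-poor and was lower than Il1a at -2.14, is not printed. They are RefSeq sequences of GRCm38.p6, 5′ to 3′ on the gene's strand, with each CpG in capitals.
Gm3230, CpG-rich, lowest (chr2:19657898-19658147, minus strand): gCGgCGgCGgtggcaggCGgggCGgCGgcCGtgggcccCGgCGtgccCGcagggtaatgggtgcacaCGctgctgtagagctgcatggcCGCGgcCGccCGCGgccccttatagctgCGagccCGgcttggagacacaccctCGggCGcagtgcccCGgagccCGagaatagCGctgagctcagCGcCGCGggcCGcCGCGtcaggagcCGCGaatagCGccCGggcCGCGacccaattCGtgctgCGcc
Mdga1, CpG-rich, highest (chr17:29887883-29888132, minus strand): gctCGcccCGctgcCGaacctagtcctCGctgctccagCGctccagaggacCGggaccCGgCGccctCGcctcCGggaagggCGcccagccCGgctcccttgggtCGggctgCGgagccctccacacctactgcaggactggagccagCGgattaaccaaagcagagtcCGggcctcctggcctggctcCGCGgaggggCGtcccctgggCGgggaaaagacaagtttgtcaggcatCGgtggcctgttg
Il1a, CpG-poor, lowest (chr2:129309973-129310222, minus strand): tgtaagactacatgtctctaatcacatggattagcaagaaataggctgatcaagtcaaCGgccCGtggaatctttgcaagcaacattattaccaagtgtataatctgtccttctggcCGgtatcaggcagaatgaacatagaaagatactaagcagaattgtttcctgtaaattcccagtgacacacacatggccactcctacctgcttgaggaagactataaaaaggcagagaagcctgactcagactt
Vax2os, CpG-poor, highest (chr6:83710826-83711075, minus strand): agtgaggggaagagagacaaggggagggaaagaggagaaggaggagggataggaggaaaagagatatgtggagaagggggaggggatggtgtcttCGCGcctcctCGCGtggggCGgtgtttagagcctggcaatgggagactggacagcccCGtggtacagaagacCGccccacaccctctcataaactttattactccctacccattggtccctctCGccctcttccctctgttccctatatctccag
The Gm3230 stretch holds 37 CpG and that of Mdga1 21, while those of Il1a and Vax2os hold 3 and 8. In each class shown, the promoters were picked for a low and a high ratio, so their opposite ratios follow from the choice. Il1a encodes the cytokine interleukin 1 alpha, and its peak had 1171 reads over 4000 bp in sg-Ctrl and 179 over 1800 bp in KO (-1.90). Vax2os shares the peak of Vax2 given above.

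CpG content moved the median little. A promoter of 300 bases was classed as CpG-rich when its observed to expected CpG ratio was at least 0.6 and its GC content at least 50%, and as CpG-poor when the ratio was under 0.4. The median log2 density ratio was -0.51 at the 8409 CpG-rich promoters and -0.46 (-0.49 to -0.43) at the 1470 CpG-poor ones. The tails differed more: 12.9% of CpG-poor promoters were at least 2-fold lower against 8.97% of CpG-rich ones, and 52.0% of CpG-poor promoters were wider in KO against 65.5%. Within the sparsest quintile the order of the medians was turned, with -0.36 at CpG-poor and -0.19 at CpG-rich promoters. In the densest quintile, 22.2% of 158 CpG-poor promoters were at least 2-fold lower against 13.4% of CpG-rich ones.

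Of 10 short motifs searched on both strands of the 8956 RefSeq promoters, none set its promoters far apart. TATAAA was found in 6.45% of them, against 13.6% of all 32851 RefSeq promoters, and 14.5% of the genes with it were at least 2-fold lower against 9.25% of those without. GGGCGG, the binding sequence of SP1, was found in 68.0% against 35.7% of all promoters, with 8.57% of genes at least 2-fold lower with it and 11.8% without. For the other motifs the median log2 density ratio of the promoters that held one lay between -0.56 and -0.43. The ETS motif CCGGAAG was found in 20.4% of these promoters and in 8.86% of all, and CCAAT in 39.6% and 37.4%. The E-box CACGTG was found in 10.5% and 7.15%, and the TEAD motif GGAATG in 11.3% and 14.7%. The cyclic AMP response element TGACGTCA was found in 3.67% and 1.79%. The shares for the AP-1 motif TGACTCA, whose letters overlap in part with it, were 3.46% and 5.202%. The NF-kB motif was found in 10.98% and 8.46%, and the CArG box in 1.23% and 1.63%. A match is a description of the sequence only.

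Promoters that also carried H3K27me3 had higher ratios than the rest. At 380 genes the sg-Ctrl TSS peak overlapped an H3K27me3 peak of sg-Ctrl. Their median log2 density ratio was -0.22 (-0.27 to -0.16), against -0.51 at the other 11816 genes, and 71.1% of them had a wider peak in KO. Their scaled reads had a median ratio of 0.03 against -0.33. The difference was largest where H3K4me3 was sparse. In the sparsest quintile, the 196 genes with H3K27me3 at the peak had a median density of 118.6 in sg-Ctrl and 141.7 in KO. Their median ratio was 0.10 (0.02 to 0.23), against -0.24 for the whole quintile. The whole quintile was denser, with medians of 211.0 and 174.2, so density was not matched. The part of density in this difference was not tested. In quintiles 2, 3 and 4 the genes with H3K27me3 had medians of -0.29, -0.47 and -0.55. All genes of these quintiles had -0.41, -0.51 and -0.57. In the densest quintile, the 42 such genes had a median of -0.68, close to the -0.67 of that quintile. Of the 64 genes at least 2-fold higher in KO, 22 (34.4%) had H3K27me3 at the peak, against 3.12% of all genes compared and 2.29% of the genes at least 2-fold lower. All but 4 of these 64 genes were in the sparsest quintile, and 11 of them had at least 200 reads in both libraries. Relative to the chromosome median, genes with H3K27me3 at the peak had a median of 0.23.

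H3K27me3 of KO at the same peaks gave a similar picture. At 198 of the 380 genes an H3K27me3 peak was also listed in KO, and their median H3K4me3 ratio was -0.26 (-0.34 to -0.19). At the 182 genes where H3K27me3 was listed in sg-Ctrl alone it was -0.18 (-0.26 to -0.11), and these intervals overlap. At 53 genes with H3K27me3 at the peak in KO alone it was -0.32 (-0.60 to -0.08). Presence of H3K27me3 in sg-Ctrl went with a higher ratio whether or not the mark was listed in KO. The KO library of H3K27me3 was deeper, and the part of depth in which peaks were listed was not tested.

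Genes that carried a NUP210 peak in sg-Ctrl anywhere on the gene had a lower ratio, by a small amount. The median log2 density ratio was -0.60 (-0.62 to -0.59) at 3211 such genes and -0.46 (-0.47 to -0.45) at the other 8985, and 13.5% against 8.29% were at least 2-fold lower. The NUP210 genes were denser and wider in sg-Ctrl, with medians of 668.3 scaled reads per kb and 4400 bp against 504.9 and 3400 bp. Within quintiles of density, the medians of genes with and without NUP210 were -0.26 and -0.24 in the sparsest, -0.48 and -0.40 in the second, -0.58 and -0.47 in the third, -0.65 and -0.53 in the fourth and -0.71 and -0.64 in the densest. The order was the same in all 5, though in the sparsest and in the second quintile the intervals overlapped. Relative to the chromosome median, the values were -0.08 and 0.03. The NUP210 list was used as deposited, and 31.0% of its peaks had an FDR above 0.05.

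**Figure D4:**
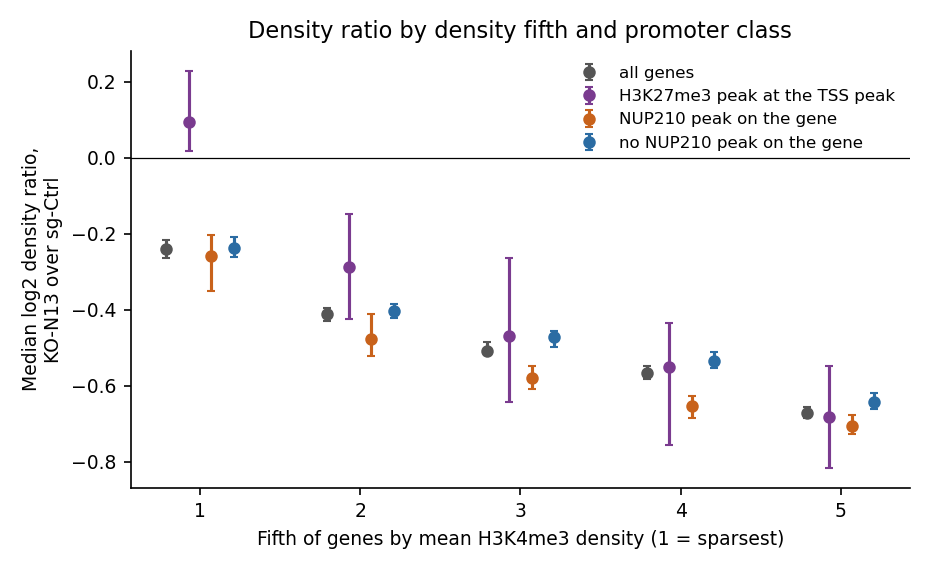
Median log2 ratio of H3K4me3 density, KO-N13 over sg-Ctrl (y axis), in quintiles of genes by mean density (x axis, 1 is the sparsest), for all genes and for 3 promoter classes, with 95% intervals from order statistics over genes. The medians of all genes go from -0.24 to -0.67, and the H3K27me3 class stands above 0 in the sparsest quintile alone, at 0.10.

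Developmental regulators are classic targets of Polycomb. Of 32 developmental transcription factors 10 had a TSS peak in both libraries, and all 10 lay above the median of all genes, with a list median of 0.02. Foxf1, a forkhead factor of mesoderm, had 1346 reads over 6400 bp and 958 over 2400 bp (0.58), so its higher density came with a shorter peak and fewer reads. Tbx2, a T-box factor, had 78 and 402 reads (1.44), Lhx6, a LIM homeobox factor, 316 and 642 (0.39), and Gata4 893 and 1159 (0.14). Lhx2 had a peak in KO alone, of 78 reads and 3.40-fold over IgG. None of the 10 was at least 2-fold lower, where 9.66% of all genes were. Genes of the same density quintiles as this list had a median of -0.35.

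Wnt and Notch genes were also above the rest, with a median of -0.12 over 24 genes, of which 5 lay below the median of all genes. None was at least 2-fold lower, where 9.66% of all genes were. Genes of the same density quintiles as this list had a median of -0.40. Among ligands, Wnt11 had 186 reads in sg-Ctrl and 629 in KO (1.03), Wnt7b 1769 and 1575 over 9200 and 3800 bp (0.76), and Dll1, a Notch ligand, 1374 and 2394 (0.39). The receptors ranged widely: Fzd7 was at 0.69 and Fzd4 at 0.22, Notch1 at 0.00 with densities of 657 and 658, and Fzd6 at -0.61. Lrp6, the Wnt co-receptor, was the lowest at -0.86 with 2492 and 1740 reads. Among intracellular members, Axin1, a scaffold of the complex that degrades beta-catenin, was at -0.84, Ctnnb1, beta-catenin itself, at -0.73 and Hes1, a Notch target, at -0.64. Wnt5a had a peak in KO alone and Jag2 in sg-Ctrl alone.

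Ratios of both signs were found within the HoxA cluster. On chromosome 6 the anterior HoxA genes share a domain, so they are not separate observations. Hoxa3, Hoxa5, Hoxa6 and Hoxa7 shared 16362 and 10824 reads over 26000 bp (-0.94). Hoxa9 and Hoxa10 were at -0.66 with 3305 and 2665 reads. In contrast, Hoxa13, at the posterior end, had 87 and 282 reads (1.06), and on chromosome 2 Hoxd3 had 357 and 701 (0.52). Hoxa11, Hoxb6, Hoxc10 and Hoxc12 had a peak in KO alone, which at Hoxa11 held 2776 reads. The 13 genes with a peak in both libraries stand in 6 regions. Among those in both, the dense HoxA domain had negative ratios and the sparse peaks of Hoxa13 and Hoxd3 positive ones.

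Genes of the cell cycle had low list medians and a wide spread. The list of G1/S and DNA replication had a median of -0.72 over 20 genes, 14 of them below the median of all genes, and that of mitosis had -0.70 over 20, with 11 below. Their genes were dense, and genes of the same density quintiles had medians of -0.56 and -0.59. Of the helicase subunits, Mcm2 was at -1.05, Mcm6 at -1.01 and Mcm5 at -0.26. The sg-Ctrl peak used for Mcm2 did not include its start, while the KO peak did. Pcna, the sliding clamp of DNA polymerase, had 11499 reads over 10000 bp and 8829 over 11200 bp (-0.89). Ccne1, cyclin E1, stood alone above 0 with 285 and 629 reads (0.47). In mitosis, Ccnb2, cyclin B2, had 1972 and 2036 reads over 3000 and 5800 bp (-1.25), Kif11, a spindle motor, was at -1.02, and Plk1 and Cdk1, mitotic kinases, were at -0.03 and 0.09. In these lists 2 of 20 and 3 of 20 genes were at least 2-fold lower. Such counts are near the 9.66% of all genes.

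The replication-dependent histone genes had a median of -0.77, where genes of the same quintiles had -0.35. The 60 genes stand in 24 regions, and 6 of them were at least 2-fold lower, a share close to the 9.66% of all genes. Hist1h2ai, a histone H2A gene of chromosome 13, had 3250 reads over 4000 bp in sg-Ctrl and 6546 over 14800 bp in KO (-1.22). Its start lay outside that sg-Ctrl peak and inside the KO peak, which spanned 2 sg-Ctrl peaks. Hist1h2bm, an H2B gene, had 2913 reads over 9800 bp and the same KO peak (0.23). One KO peak thus stood for genes with ratios of both signs.

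Chemokine genes of chromosome 5 were low together. Of 8 CXC and CC chemokine genes with a peak in both libraries 4 were at least 2-fold lower, against 9.66% of all genes. All 4 lie on chromosome 5, where the median ratio was -0.72 and 152 of 760 genes were at least 2-fold lower. Cxcl5, a neutrophil attractant, had the same peak of 4600 bp in both, with 5389 and 2615 reads and a log2 density ratio of -1.39. Cxcl1 had 2435 and 1550 reads (-1.38), Cxcl10, an interferon-induced chemokine, 1230 and 1221 over 1600 and 2800 bp (-1.16), and Cxcl2 1261 and 248, with densities of 204.9 and 102.2. Relative to the median of chromosome 5, Cxcl5 was at -0.67, Cxcl1 at -0.65, Cxcl10 at -0.44 and Cxcl2 at -0.28. Cxcl3 and Cxcl9, on the same chromosome, were listed in sg-Ctrl alone with 275 and 701 reads, as was Ccl2 on chromosome 11 with 119. The Ccl2 peak was only 2.003-fold over IgG. Outside chromosome 5, Ccl25 was at -0.40, Ccl5 at -0.30, Cx3cl1 at 445.7 scaled reads per kb in both and Cxcl16 at 0.30.

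Cytokine genes spread in both directions. Of 14 with a peak in both libraries 4 were at least 2-fold lower (28.6%, against 9.66% of all genes), among them Il1a (-1.90), Csf3, the granulocyte colony-stimulating factor, with 6767 and 2997 reads over 13400 and 12400 bp (-1.41) and Il15 (-1.35). Tgfb3 was at -0.81. Lif was at 0.12, Tgfb1 at 0.17, Vegfa at 0.22 and Tgfb2 at 0.26. Csf2 had a peak in sg-Ctrl alone, of 44 reads and 3.46-fold over IgG. Of 14 genes, 12 had a narrower peak in KO and 2 a wider one, against 27.1% and 63.1% of all genes. Lif, for example, went from 12400 to 5000 bp and Il23a from 9000 to 4400 bp.

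Epithelial and mammary genes had medians above that of all genes, with members at both ends. The epithelial list had a median of -0.29 over 21 genes, where genes of the same density quintiles had -0.43. Of the 21, 5 were below the median of all genes, and 1 was at least 2-fold lower, where 9.66% of all genes were. Cdh1, E-cadherin, had 4533 reads over 9400 bp in sg-Ctrl and 4666 over 4800 bp in KO, a log2 density ratio of 0.67. Krt8 and Krt18, simple epithelial keratins, were at -0.37 and -0.43, Epcam at -0.55, and Tjp1, a tight junction scaffold, was lowest at -1.08. Cldn7, a claudin, had 727 reads over 1600 bp and 2427 over 8400 bp, with densities of 428.3 and 214.4. Its start lay outside the sg-Ctrl peak used and inside the KO peak. Where genes of the same density quintiles had a median of -0.42, the mammary list had -0.23 over 16 genes. Of these, 6 were below the median of all genes and 2 were at least 2-fold lower (12.5%), with Cops2, a COP9 signalosome subunit, at -1.02, Foxa1 at 0.32, Esr1 at -0.50 and Krt14 with densities of 77.6 and 38.7. AP-1 and other immediate early genes had a median of -0.29 over 22, from Fosl2 at -1.06 to Nr4a1 at 0.32.

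Antigen presentation stood well above the median of all genes, and above the -0.45 of genes of the same density quintiles. Its list median was -0.06, and 4 of 15 genes lay below the median of all genes. Most genes of this list lie on chromosome 17 and some share a peak, as H2-D1 and H2-L do (-0.75) and Tap1 and Psmb9 (-0.39). The start of H2-D1 lay outside the sg-Ctrl peak used and inside the KO peak. Among groups close to all genes, ribosomal proteins (78 genes, -0.48), the respiratory chain (74 genes, -0.49), zinc finger proteins (301 genes, -0.50) and nucleoporins (26 genes, -0.51) differed little from the all-gene value. The mitochondrial ribosome was at -0.65 over 75 genes, of which 62 had a wider peak in KO. Nucleoporins ranged from -1.42 to 0.11, the value of Rae1, with Ranbp2 and Nup37 at -1.08 and -1.05. Genes of cell adhesion included Itgb2, a leukocyte integrin chain, with 972 and 193 reads (-1.87), Itgb1 (-1.35) and Ptk2, focal adhesion kinase, with 9355 and 8413 reads (-0.97), while the focal adhesion list as a whole was at -0.31 over 22 genes. Integrins had a median of -0.47 over 15 genes, and at the upper end were Itga8, with 218 and 382 reads (0.31), and Itgb8, with 55 and 136 reads (1.22).

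Lists with medians between these were glycolysis (-0.48), cholesterol synthesis (-0.64), heat shock and unfolded protein response (-0.50), the NF-kB pathway (-0.45), interferon response (-0.34), actin and myosin (-0.52), Hippo and TEAD targets (-0.59), LINC complex and lamina (-0.52), EMT and mesenchymal genes (-0.54), collagens and matrix (-0.58), matrix proteases (-0.57), Polycomb (-0.40), H3K4 methylases and demethylases (-0.50), p53 targets (-0.46), the proteasome (-0.42), and small RNA genes (-0.48). Keratins (7 genes, -0.47), neuronal genes (5 genes, -0.29) and olfactory receptors (5 of 1249 genes, -0.42) had few members with a peak. Kdm5a, which removes H3K4me3, was at -1.49 with 5137 reads over 5400 bp and 3626 over 8400 bp, and Suz12, a core Polycomb subunit, was at -1.25 with 7536 and 4353 reads. The microRNA genes Mir200a, Mir200b and Mir429, whose products keep epithelial cells epithelial, had a TSS peak in sg-Ctrl alone, on chromosome 4 with 2116 reads. Whether a KO peak more than 4 kb from their starts overlapped it was not tested. Each list is described by its counts, and no difference between lists was tested.

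**Figure D5:**
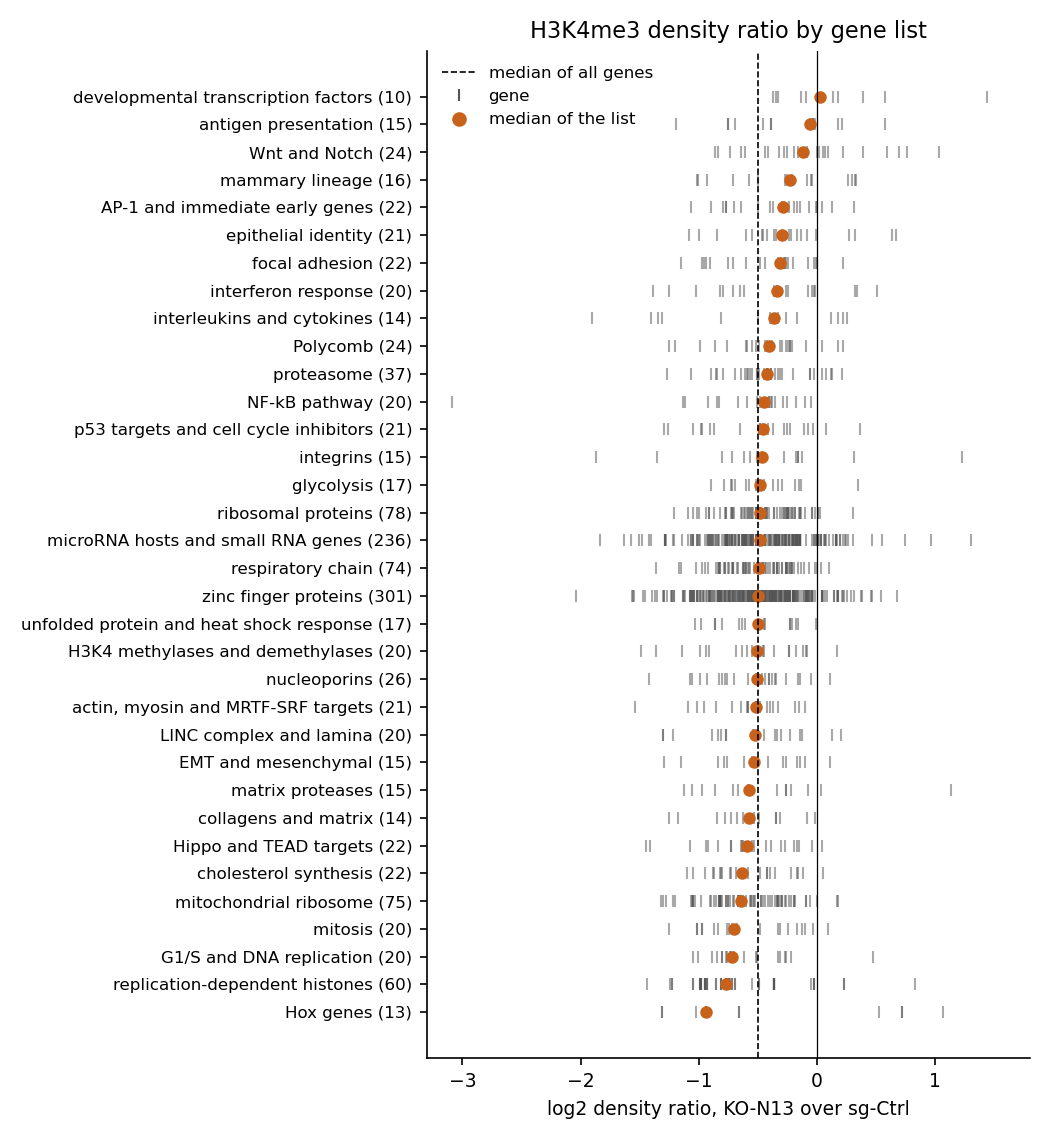
Log2 ratio of H3K4me3 density, KO-N13 over sg-Ctrl (x axis), of each gene (ticks) and the median (circles) of the gene lists with at least 10 genes that have a peak in both libraries (y axis, number of genes in brackets). The dashed line is the median of all genes at -0.50; developmental transcription factors (0.02), antigen presentation (-0.06) and Wnt and Notch (-0.12) are highest, and Hox genes (-0.94) and replication-dependent histones (-0.77) are lowest.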

How the data were processed

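ChIP-seq peaks of 4T1 cells were called by the authors with SICER (window of 200 bp for H3K4me3) against an IgG library. Bowtie2 is among the tools in the submitters' processing notes, and the build of these lists is not given in the sources used here. For each peak the authors deposited raw counts of ChIP and IgG reads, a p-value, an FDR and a ratio, the fold over IgG scaled by library size. Start sites of the lists lay within 100 bp of GRCm38.p6 for 93.2% of 9610 genes matched by name. The library size relative to IgG was recovered from reads and folds (1.06 in sg-Ctrl, 1.35 in KO), and counts were divided by it. Where the IgG count is 0, the deposited fold uses 0.25 reads. The densest TSS peak stood for a gene with several. The peak used need not include the start, and the libraries could differ in this. Overlap required 1 bp. Widths, edges and density were compared over genes with a peak in both lists. Read counts have exact Poisson 95% intervals, ratios exact binomial ones, shares Wilson ones. Depth is known only through these ratios and the reads in peaks.

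Promoter composition came from RefSeq for 8956 genes, and for 2951 others from NCBIM37 sequence around the gene start, matched by name, together 97.6% of the genes. The members and gene lists were chosen with earlier results of these data known. Genes are named by rank (lowest and highest density ratio, width and edge changes, extremes of each list and genes the study measured), and other members of a list were added after their values were seen. Some genes that this rule names are not reported here. The promoters printed were restricted to those inside both peaks after the values were seen. The step that gives the density ratio of a gene and its interval was tested on simulated counts, with the same peaks in both lists. Peak widths, edges and the scaling were not tested in this way. RNA-seq and the NPC list were not analysed here. The tools were matplotlib 3.10.9, scipy 1.17.1, Python 3.11.15, pandas 2.3.3 and numpy 2.4.6.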

Additional observations from a re-analysis of the deposited data

How the results depend on the processing

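Each condition has 1 library, so no replicate could be left out, and counting intervals do not cover differences between cultures. No paired analysis was possible because each ChIP condition has 1 library. With reads of shared peaks made equal, 153 genes were 2-fold lower and 211 higher, the median log2 density ratio was -0.078, and the median reads ratio changed sign to 0.10. Without scaling these values were 233, 171, -0.15 and 0.021. With that scaling by shared peaks, the medians of these lists became positive: cytokines (0.055), AP-1 (0.13), interferon response (0.083), antigen presentation (0.36), focal adhesion (0.11), epithelial identity (0.13), mammary lineage (0.19), Polycomb (0.019), Wnt and Notch (0.30), neuronal genes (0.13) and the fibroblast marker Pdgfra (0.021). Dividing by the union of both peaks gave a median of -0.32 and 216 higher genes. Subtracting IgG moved the medians to -0.51 for density and -0.34 for reads. Alternatives chosen after seeing the data were these. Without chromosomes 4, 8 and 18 the medians were -0.49 and -0.31, and 64.5% of genes were wider. Against the chromosome median, 103 genes were lower and 263 higher. Against the median of the density quintile, 153 were lower and 135 higher. Using the peak nearest the start, genes with 1 TSS peak, an FDR of at most 0.01, 10-fold over IgG, autosomes or genes with 1-to-1 peaks left these results within their intervals or within 1.5 times.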
